A study of Homo sapiens with 3 samples.

Results

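Long intergenic non-coding RNAs (lincRNAs) and antisense transcripts held 2619 of the 115227 clusters in MATR3 PAR-CLIP libraries from HAP1 cells. A cluster is a stretch of overlapping sequencing reads that carries T-to-C changes. The lincRNA and antisense clusters were taken by the authors' annotation: every cluster whose class names a lincRNA intron, a lincRNA exon or an antisense transcript, with no other class joined to it, outside the mitochondrial chromosome. They numbered 1970 of 87230 clusters in replicate 1 of the wild type (WT), called rep1, 620 of 27155 in WT replicate 2 (rep2) and 29 of 842 in the MATR3 knockout (KO).

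HAP1 is a near-haploid line derived from KBM-7 cells, which came from a chronic myeloid leukaemia. WT cells and a MATR3 KO line, both with catalogue numbers and the WT cells from Horizon Discovery, were grown in the same medium. The labels name no other treatment, and the KO library is the negative control of the immunoprecipitation. The labels give the KO line a single catalogue number, so it may be 1 clone, and they record no FLAG tag on MATR3 although anti-FLAG beads were used in all 3 libraries. The replicates are named independent, but nothing says that they came from separate cultures, and no batch is given. Cluster lists do not measure expression, so the cell line's own markers were not scored.

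MATR3 (matrin 3) is an abundant nuclear protein with a pair of RNA recognition motifs that binds pyrimidine-rich RNA, mostly in introns, and it is known for repressing splicing of nearby exons. In PAR-CLIP, cells take up 4-thiouridine, which crosslinks to bound protein under UV light and is then read as C, so T-to-C changes mark sites of contact. RNase T1 trims the bound RNA by cutting after G. LincRNAs are transcribed from their own loci between protein-coding genes, and antisense transcripts run against a neighbouring gene. Many are spliced and have long introns like coding genes, some act in the nucleus as scaffolds or in X inactivation, and others are mainly hosts of microRNAs or small nucleolar RNAs (snoRNAs).

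The RNA sequences of overlapping cluster pairs show what the strongest sites found in both WT libraries look like. The 8 pairs chosen were those with the highest geometric mean of reads with no more than 1 pair a gene, and 1 sequence of each pair is given with the 3 KO clusters that had the most reads. Each is written 5′ to 3′ on the RNA strand with T for U, as the authors' clusters give it (build hg38, per the submitters' processing notes), and capitals mark any of 5 pyrimidine-rich pentamers. These are TTCTT, then TTTCT and also TCTTT, followed by CTTTC and lastly by ATCTT. They were searched on the RNA strand only, and neighbouring matches may overlap.
ZFAS1 (antisense, chr20:49285642-49285742, + strand, rep2): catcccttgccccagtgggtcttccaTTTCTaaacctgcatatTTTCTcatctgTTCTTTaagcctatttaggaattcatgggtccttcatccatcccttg
FTX (lincRNA intron, chrX:74271788-74271823, - strand, rep1): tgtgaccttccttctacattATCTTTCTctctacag
NEAT1 (lincRNA exon, chr11:65426142-65426179, + strand, rep2): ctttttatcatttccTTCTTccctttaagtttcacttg
MIATNB (lincRNA intron, chr22:26697834-26697866, + strand, both WT libraries): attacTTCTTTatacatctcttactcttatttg
RP11-148B6.1 (antisense, chr4:112647140-112647174, - strand, rep1): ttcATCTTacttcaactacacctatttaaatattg
RP11-554F20.1 (lincRNA intron, chr9:99817327-99817359, - strand, rep1): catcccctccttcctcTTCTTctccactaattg
C22orf34 (lincRNA intron, chr22:49650910-49650944, - strand, rep2): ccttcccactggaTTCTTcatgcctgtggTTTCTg
JPX (lincRNA intron, chrX:73959175-73959209, + strand, both WT libraries): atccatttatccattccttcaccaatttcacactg
LINC01021 (lincRNA intron, chr5:27489776-27489804, + strand, KO): aataataaaataaccaaatatacataatg
RP11-144F15.1 (antisense, chr12:106672283-106672325, - strand, KO): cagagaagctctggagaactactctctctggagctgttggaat
AC004053.1 (antisense, chr4:104663624-104663666, + strand, KO): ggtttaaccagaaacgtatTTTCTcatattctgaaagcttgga
T and C made up 65.7 to 84.8% of the bases of the WT sequences shown. Their partners not shown ran from 60.2% in C22orf34 to 87.1% in RP11-554F20.1. The JPX and MIATNB clusters had the same first and last base in both WT libraries, and the JPX cluster is the 1 WT sequence shown that holds none of the pentamers. Each of the 8 WT sequences shown ends in G, the base after which RNase T1 cuts. Those of MIATNB, RP11-148B6.1, RP11-554F20.1 and JPX have no other G. The longer C22orf34 cluster of rep1, which is not shown, ends in A. The KO clusters look different: the LINC01021 cluster is 62.1% A, and the clusters of RP11-144F15.1 and AC004053.1 hold 46.5% and 51.2% pyrimidines.

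The pairs were chosen for high reads in both WT libraries, and how far the libraries differed varied from pair to pair. The FTX cluster held 753 reads in rep1, of which 72.4% carried a T-to-C change, and 507 reads in rep2, of which 66.7% did. The NEAT1 pair held 980 and 207 reads, with a change in 64.5% and 60.9% of them. The MIATNB pair held 155 and 169 reads and the JPX pair 53 and 247, so that JPX differed more between the WT libraries than FTX or MIATNB did. In C22orf34 the rep2 cluster had 105 reads of which only 10.5% carried a change, whereas 76.0% of the 196 reads of its longer partner in rep1 did.

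LincRNA and antisense clusters were a small and steady share of what was called. They made up 2.26% of clusters in rep1 (95% Wilson interval 2.16 to 2.36%) and 2.28% in rep2 (2.11 to 2.47%), a mean of 2.27 ± 0.0175% (SD, n = 2). In the KO library they made up 3.44% (2.41 to 4.90%). The KO value lay above both WT values, and its interval reaches down to the upper end of theirs. Of the reads in clusters, 2.18% in rep1, 2.32% in rep2 and 3.35% in KO fell in these clusters. No test between genotypes was run with 2 WT libraries and 1 KO library, for which the smallest exact permutation p is 0.333. Clusters and reads are not replicates, and the intervals show counting error alone, as no molecular identifiers are given for reads.

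Introns of lincRNAs were the largest of the 3 classes. They held 1089 clusters in rep1, 369 in rep2 and 18 in KO. Antisense transcripts, for which the annotation does not part exons from introns, held 717, 209 and 8. Exons of lincRNAs held 164, 42 and 3. The classes thus kept nearly the same proportions in both WT libraries, with lincRNAs at 63.6% and 66.3% of these clusters. In KO the lincRNA share was 72.4%, with an interval of 54.3 to 85.3% that spans both WT values. A further 12 clusters in rep1 and 3 in rep2 join one of these classes to another and were left out. One of them mattered by its size: a MALAT1 cluster in rep2 held 2233 reads, more than any cluster counted here.

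The clusters were shallow in the WT libraries and deep in KO. Median reads per cluster were 19 (quartiles 11 and 31) in rep1, 40 (16 and 78) in rep2 and 254 (131 and 379) in KO. Median lengths were 33, 32 and 31 nt. Total depth is unknown, because the tables hold only reads within called clusters, and a gene without a cluster has no known upper limit. All clusters of the libraries together held 2668797, 1558995 and 224142 reads. The gene targeted in the KO line, MATR3, had 53 and 26 clusters in the WT libraries and 0 in KO.

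The clusters were spread over many genes with few clusters each. They lay in 576 lincRNA and antisense genes in rep1, 264 in rep2 and 28 in KO. A single cluster was all that 313 genes (54.3%) had in rep1 and 168 genes (63.6%) in rep2. At the other end, the 10 genes with the most reads in each library held 32.6% of these reads in rep1 and 39.6% in rep2. Names derived from sequencing clones, such as RP11-244M2.1, were borne by 323 of the 576 genes in rep1 and 138 of the 264 in rep2.

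**Figure D1:**
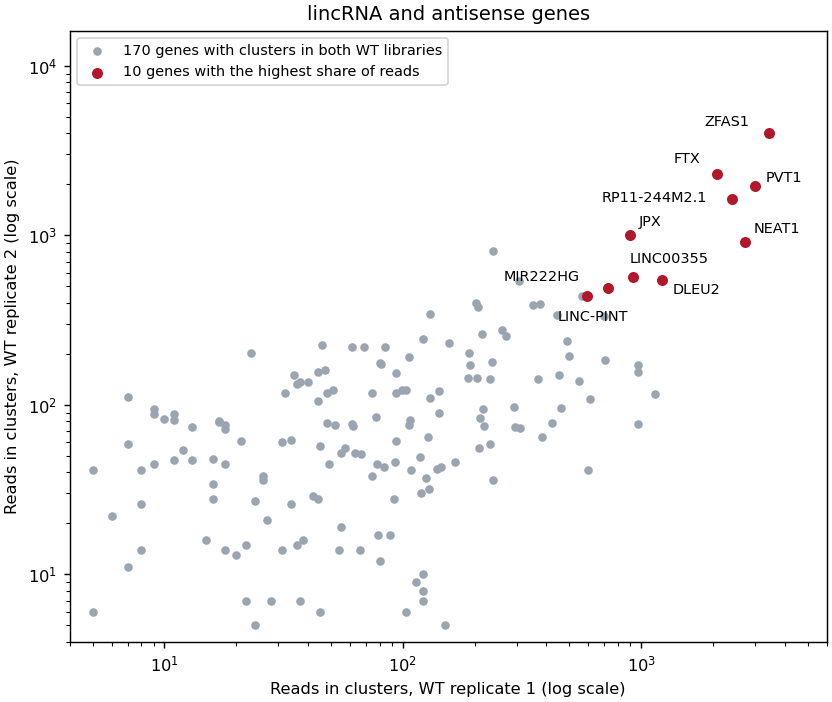
Reads in clusters of each lincRNA or antisense gene in WT replicate 1 (x axis, log scale) and WT replicate 2 (y axis, log scale), 1 point a gene, for the 170 genes with clusters in both. The 10 genes with the highest share of reads over both libraries (red) lie at the upper right, led by ZFAS1 with 3455 and 4025 reads, and the scatter around them widens towards genes with few reads.

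Agreement on genes was lower than for genes in general. Clusters lay in 170 genes in both WT libraries, which is 29.5% of the genes of rep1 and 64.4% of those of rep2 (95% Wilson interval 58.4 to 69.9%). Over all genes the share of rep2 genes also found in rep1 was 91.4%, and over genes with intronic clusters it was 93.8%. The share was lower at each number of clusters a gene had. Among lincRNA and antisense genes with 1 cluster in rep2, 50% (42.5 to 57.5%) had one in rep1, against 84.1% (82.3 to 85.7%) of genes with 1 intronic cluster. With 3 or more clusters the shares were 92.7% and 99.7%. For the 170 genes, reads in the WT libraries had a Spearman correlation of 0.546 and a Pearson correlation of 0.596 on log2 reads. Over all 670 genes with a cluster in either library, those without one counted as 0 reads, the correlations were 0.0803 and 0.0527. The 170 were chosen for having clusters in both, and all of these correlations are across genes, which are not independent replicates.

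FTX and JPX, on the X chromosome, were among the 10 genes with the highest share of WT reads. FTX, a positive regulator of X inactivation and host of several microRNAs, had 50 clusters with 2085 reads in rep1, 32 with 2295 reads in rep2, and 0 in KO. JPX, its neighbour in the X inactivation centre and another activator of that process, had 18 clusters with 894 reads, 21 with 1002, and 0. JPX was the 1 gene of the leading 10 with more clusters in rep2 than in the larger rep1. XACT, which coats the active X chromosome in human pluripotent cells, had 11 clusters with 238 reads, 14 with 808, and 0; it was named after its values were seen. FIRRE, another X-linked nuclear lncRNA, had 5 clusters with 123 reads in rep1 and 0 in rep2 and KO. Almost all FTX clusters (47 and 31) and every JPX cluster were intronic.

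FTX was marked at its 5′ end. In rep1, 20 of its 50 clusters lay in the first 10% of the gene's length, and in rep2, 18 of 32 did. The strongest cluster of both libraries was the same site, 21.8 kb from the RefSeq start of a gene of 265 kb, and it held 36.1% and 22.1% of the gene's reads. That site is the sequence shown above, a pyrimidine tract that runs into a final CAG. JPX had its median cluster 20.5 kb from the start in rep1 and 22.2 kb in rep2, in a gene of 126 kb. Its strongest clusters were different sites in the WT libraries, at 48.9 kb with 249 reads and at 14.9 kb with 247 reads.

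The clusters counted here in NEAT1 and MALAT1, both RNAs of nuclear bodies, all lay in lincRNA exons. NEAT1, the RNA scaffold of paraspeckles, had 21 clusters with 2717 reads in rep1, 7 with 915 reads in rep2 and 0 in KO. Its clusters lay towards the 5′ end, at medians of 2.55 and 3.36 kb in a gene of 22.7 kb. MALAT1, an abundant RNA of nuclear speckles, had 8 clusters with 375 reads, 5 with 393 reads, and 0, beside the larger joined clusters left out above. In the joined clusters MALAT1 had 2233 reads in the largest of rep2 and 129 in the largest of rep1. LINC-PINT, a lncRNA linked to p53 and Polycomb and annotated here as antisense, had 27 clusters with 591 reads, 7 with 439 reads, and 0. Of the 11 genes on the list of nuclear and chromatin lncRNAs, 5 had clusters in both WT libraries (FTX, NEAT1, JPX, LINC-PINT and MALAT1) and 0 in KO. Few genes had a KO cluster at all. They were 6.47% of the 170 lincRNA and antisense genes found in both WT libraries, and 8.71% of all genes found in both. Nothing particular to nuclear lncRNAs follows from the 0.

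ZFAS1, a snoRNA host annotated as antisense to ZNFX1, had the most reads of all these genes: 3455 in 30 clusters, 4025 in 15 clusters, and none in KO. Its strongest rep2 cluster held 2066 reads (51.3% of the gene's) and did not overlap a rep1 cluster, lying 53 nt from the strongest one there (790 reads). SNHG17 had 22 clusters with 974 reads and 2 with 156. On the list of 23 snoRNA hosts, 10 genes had clusters in rep1, 4 in rep2 and 3 in both. ZFAS1 and SNHG17 gave 52 of the list's 78 clusters in rep1 and 17 of its 20 in rep2. DANCR, with 8 clusters in rep1, had 0 in rep2. LRRC75A-AS1 (SNHG29 in RefSeq), which is not on the list, had 12 clusters in rep1, 3 in rep2 and 1 in KO. It was named after its values were seen.

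Among microRNA hosts, DLEU2 (host of the miR-15a and miR-16-1 genes, in a region often deleted in chronic lymphocytic leukaemia) had 46 clusters with 1225 reads, 11 with 549 reads, and 0 in KO. MIR222HG, host of miR-221 and miR-222, had 17 clusters with 726 reads, 6 with 488, and 0. MIR181A1HG had 19 clusters with 564 reads, 6 with 436, and 1 in KO with 370. MIR99AHG, host of miR-99a and let-7c, had 23 clusters with 445 reads, 6 with 337, and 0. Of 20 listed hosts, 5 had clusters in both WT libraries and 2 had 1 each in KO (MIR181A1HG and MIRLET7BHG). The list is not complete: MIR222HG is not on it, nor is C22orf34 (MIR3667HG in RefSeq), which had 2 KO clusters. None of the lincRNA and antisense clusters of any library overlapped a microRNA hairpin in RefSeq. No such share is given for intronic clusters, so nothing particular to these genes follows. Overlaps with other small RNA genes were 5 in rep1 and 1 in rep2, in RMRP, the RNA of RNase MRP, and in SNHG17.

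PVT1 and RP11-244M2.1 had the most clusters in rep1. PVT1, a lncRNA beside MYC on chromosome 8 that is amplified in many cancers, had 111 clusters with 3013 reads, 42 with 1964 reads, and 1 in KO with 29 reads. RP11-244M2.1, on chromosome 18, had 97 clusters with 2400 reads, 32 with 1647, and 1 with 100. LINC00355, on chromosome 13, had 22 with 927, 10 with 565, and 1 with 41. In PVT1 the clusters were spread along the whole of its 307 kb, with medians 133 kb and 199 kb from the start, and the strongest held only 4.41% and 9.11% of its reads. On the list of 15 cancer-associated lncRNAs, PVT1, DLEU2 and CASC15 had lincRNA or antisense clusters in both WT libraries. None of the 14 imprinted lncRNAs on the list, such as H19 and MEG3, had a lincRNA or antisense cluster in any library.

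**Figure D2:**
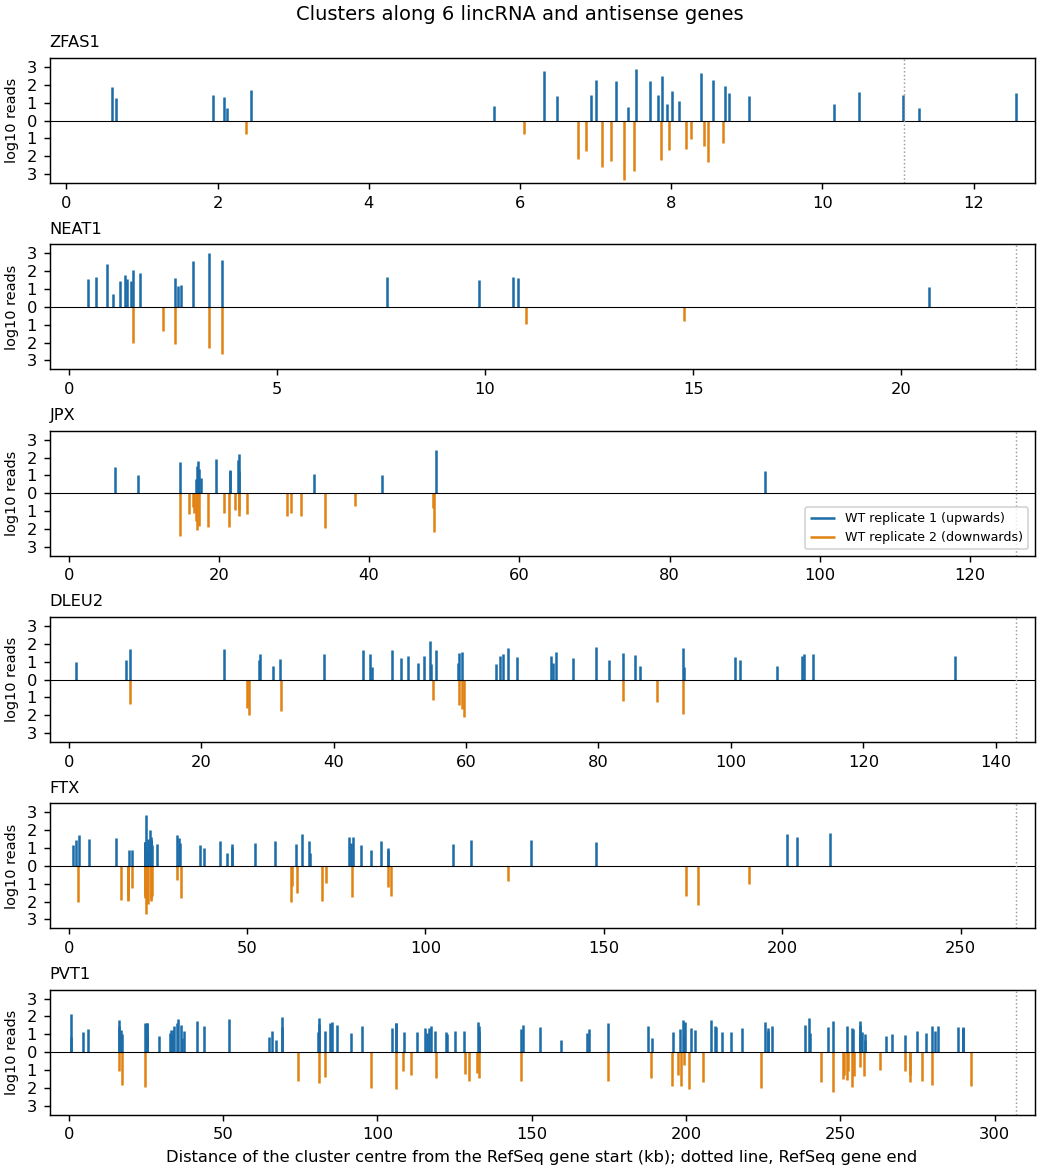
Position of clusters along 6 genes in kb from the RefSeq gene start (x axis), with the height of each line giving log10 of the cluster's reads for WT replicate 1 (blue, upwards) and WT replicate 2 (orange, downwards). FTX clusters gather near 21.8 kb in both libraries and most NEAT1 clusters lie in its first 4 kb, while PVT1 clusters are spread over its 307 kb.

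At the median, density did not set these genes above coding genes. For the 98 genes with clusters in both WT libraries and a RefSeq length, the median was 9.15 clusters per 100 kb in rep1 and 3.71 in rep2. For 4895 protein-coding genes with intronic clusters in both, it was 12.2 and 4.01. The upper quartile was 21.4 against 23.3 for coding genes in rep1, but 11.8 against 7.65 in rep2. Exon clusters were counted for the lincRNA and antisense genes and not for the coding genes, so the sets are not fully alike. ZFAS1, with 271 and 135 per 100 kb, over a gene of 11.1 kb, lay far above these medians.

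The X chromosome held a larger share of these clusters than of clusters in introns. It held 9.49% (95% Wilson interval 8.28 to 10.9%) in rep1 and 16.1% (13.4 to 19.2%) in rep2, against 4.03% and 4.74% of intronic clusters. In KO, 0 of the 29 clusters lay on the X (upper Wilson limit 11.7%). FTX and JPX gave 68 of the 187 X clusters in rep1 and 53 of the 100 in rep2. Without both genes the shares were 6.26% (5.25 to 7.44%) and 8.29% (6.29 to 10.8%), still above the intronic shares. Chromosome 8 held 8.48% and 9.68%, against 4.04% and 4.11% of intronic clusters, but 3.01% and 3.11% without PVT1. Chromosome 18 behaved alike: 5.94% and 5.97% became 1.07% and 0.850% without RP11-244M2.1. The X was not alone in its excess. Chromosome 13 held 5.08% and 5.48%, against 2.79% and 3.18% of intronic clusters. Chromosome 20 held 3.71% and 3.87%, against 2.20% and 2.14%. Chromosome 21 held 1.98% against 0.900% in rep1 and was above its intronic share in rep2 too. No gene was left out for these chromosomes. Others, such as chromosomes 1, 2 and 3, lay below their intronic shares in both WT libraries. Leaving out the leading genes was chosen after these shares were seen, and clusters of 1 gene are not independent.

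Genes with antisense names were compared with the genes that their names refer to. The name need not match the class, as GMDS-AS1 and RNF139-AS1, for example, are annotated here as lincRNAs. Of the genes with clusters, 144 had a name of the form X-AS with a number, and 45 of them had clusters in both WT libraries. The partner gene X of these 45 had clusters in both WT libraries in 24 cases, in 1 of them in 14 and in neither in 7. The X-AS gene had more clusters than its partner in both WT libraries in 14 cases, and fewer in both in another 14. Pairs of both kinds are easily named. For example, THUMPD3-AS1 had 19 clusters in rep1 and 3 in rep2, while THUMPD3 had 4 and 0. TRAF3IP2-AS1 had 21 and 3, and TRAF3IP2 had 1 and 0. In contrast TMEM161B-AS1 had 15 and 2, and its partner TMEM161B had 52 and 19. These 3 genes were named after their values were seen.

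The lincRNA and antisense clusters were also checked for clusters on the opposite strand. No lincRNA or antisense cluster of any library overlapped a cluster of the same library on the opposite strand, and within 200 nt only 2 of the 1970 in rep1 had one. No such share is given for other clusters, so nothing particular to these classes follows. The assignment to a non-coding gene is less certain where genes overlap. RefSeq placed 8.58% of these clusters in rep1, 6.77% in rep2 and 3 of 29 in KO inside a protein-coding gene on the same strand. Of antisense clusters, 17.7% and 19.1% in the WT libraries lay opposite a protein-coding gene of the RefSeq list.

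The base content of the clusters resembled that of intronic clusters in each WT library. T made up 39.6% of bases in rep1 and 41.3% in rep2, a mean of 40.4 ± 1.20% (SD, n = 2), against 40.4% and 42.1% in introns of other genes. G, at 10.9% and 10.6%, was scarce in both (10.0% and 9.78% in introns). In the KO clusters T was 28.2% and G 22.1%, and thus T was lower and G higher than in either WT library by more than the spread between them. KO intronic clusters differed in the same direction but less, with T at 33.2% and G at 16.5%. The difference held cluster by cluster only in part: 202 of the 1970 clusters of rep1 and 45 of the 620 of rep2 had a T share at or below the KO median of 26.5%. The KO clusters are also deeper, and the 29 deepest WT clusters had T at 33.2% in replicate 1 and 41.7% in replicate 2, so only in rep1 did the deepest clusters lie nearer to KO.

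**Figure D3:**
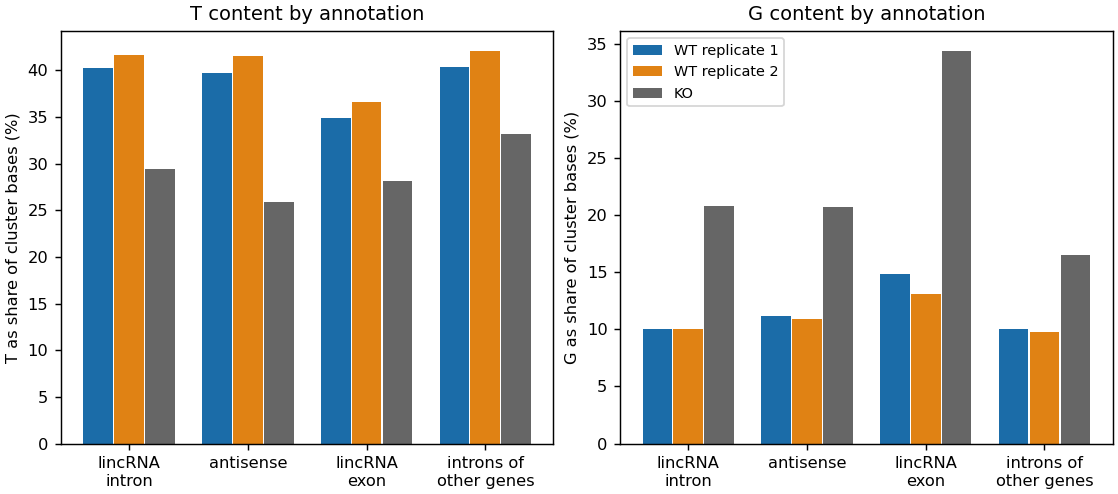
T (left) and G (right) as a percentage of all bases in the clusters of each class, for WT replicate 1 (blue), WT replicate 2 (orange) and KO (grey); each bar is 1 library and has no error bar. In the WT libraries lincRNA exons have less T (34.9% and 36.6%) and more G (14.8% and 13.1%) than lincRNA introns, and all KO bars show less T and more G.

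Genes differed from each other in base content. Clusters of LINC00355 had 47.1% T and 5.71% G in rep1, and 43.0% T and 5.76% G in rep2. MIR99AHG was like it, with 48.7% and 46.8% T. NEAT1 lay at the other end, with 32.5% and 38.0% T and 19.8% and 16.3% G. ZFAS1 depended on the library: T was 31.0% in rep1 and 42.3% in rep2, and G 22.9% and 15.6%. Conversion followed no such order. It was 9.15% and 6.18% in ZFAS1, 6.16% and 5.63% in NEAT1, 6.81% and 8.09% in LINC00355 and 4.31% and 7.24% in MALAT1. Within ZFAS1, MALAT1 and LINC00355 the WT libraries thus differed by more than their pooled values (8.19% and 7.52%) did, and in LINC00355 and MALAT1 rep2 was the higher one.

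Exons of lincRNAs differed from their introns in base content. T was 34.9% and 36.6% in exon clusters of the WT libraries against 40.2% and 41.6% in intron clusters. G was 14.8% and 13.1% against 10.0% in both. Without NEAT1, which gave 21 and 7 of these exon clusters, T in exons was 35.3% and 36.4%. Within the 28 genes of rep1 that had both kinds of cluster, T was 36.6% in 43 exon clusters and 39.0% in 277 intron clusters. Within the 6 such genes of rep2 it was 31.7% and 40.2%, but the exon value rests on only 7 clusters.

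Short pyrimidine motifs were about as common as in introns, whose shares lay within the intervals of both WT libraries. Any of the 5 pentamers marked in the sequences was present in 58.9% (95% Wilson interval 56.2 to 61.5%) of the 1301 clusters of 30 to 36 nt in rep1 and in 62.5% (57.1 to 67.6%) of the 320 in rep2. In intronic clusters of that length the shares were 58.4% and 61.6%. LincRNA exon clusters had fewer, 43.8% (34.3 to 53.7%) in rep1 and 50% (29.9 to 70.1%) in rep2. In KO 0 of the 9 clusters of that length held one (upper Wilson limit 29.9%), and 29.9% of KO intronic clusters did. TTCTT occurred 12.2 and 15.4 times per 1000 pentamers in the WT libraries, which is 0.922 and 1.02 times its frequency in introns, and 1.19 times per 1000 in KO, from a single occurrence. Of 236 pentamers common enough to compare, all had a mean WT ratio to introns between 0.760 and 1.45, and CCAAT was the highest. A match is a description of the sequence and not a mapped binding site.

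Most clusters ended at a G, where RNase T1 cuts. The last base was G in 73.4% of the clusters of rep1, 93.1% of rep2 and 62.1% of KO. Clusters with no G before the last base made up 36.6%, 38.1% and 3.45%, the last being 1 of 29. Intronic clusters ended in G in 73.9%, 94.6% and 78.1%, and had no other G in 35.3%, 44.2% and 18.9%, so the share without an inner G was lowest in KO for both sets. A pyrimidine tract that runs into a final CAG or TAG, as in the FTX cluster, resembles the 3′ end of an intron, where the splicing machinery and the polypyrimidine tract binding proteins bind. Such ends, with 12 or more pyrimidines in the 15 bases before them, were found in 144 clusters (7.31%, interval 6.24 to 8.54%) in rep1, in 54 (8.71%, 6.74 to 11.2%) in rep2 and in 0 of 29 in KO. In introns of other genes they made up 7.12%, 11.0% and 2.78%. This measure was chosen after the sequences were seen, and whether the ends lie at annotated exons was not tested.

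T-to-C conversion in WT was close to that of introns, with differences below the spread between the WT libraries. Of the T positions read, 8.19% (95% Wilson interval 8.13 to 8.26%) were converted in rep1 and 7.52% (7.45 to 7.60%) in rep2, a mean of 7.86 ± 0.474% (SD, n = 2), against 8.03% and 7.77% in introns. The KO value, 7.90% (7.71 to 8.10%), lay between the WT values although KO introns had 10.5%. It is a mean of unlike clusters. Of the 29 KO clusters, 6 were 43 to 46 nt long, and only 10.6 to 21.1% of their reads carried a change. Their conversion was 1.38%. The other 23 were at most 42 nt long, had a change in 87.3% or more of their reads and a conversion of 12.95%. The T and G shares of the long and the short clusters were alike, at 29.1% and 27.8% T. This split was made after the values were seen. In KO introns 20 of the 25 clusters of 43 nt or more had a change in under 50% of reads, whereas in the WT libraries 1 of 84 and 1 of 10 lincRNA and antisense clusters of that length did.

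**Figure D4:**
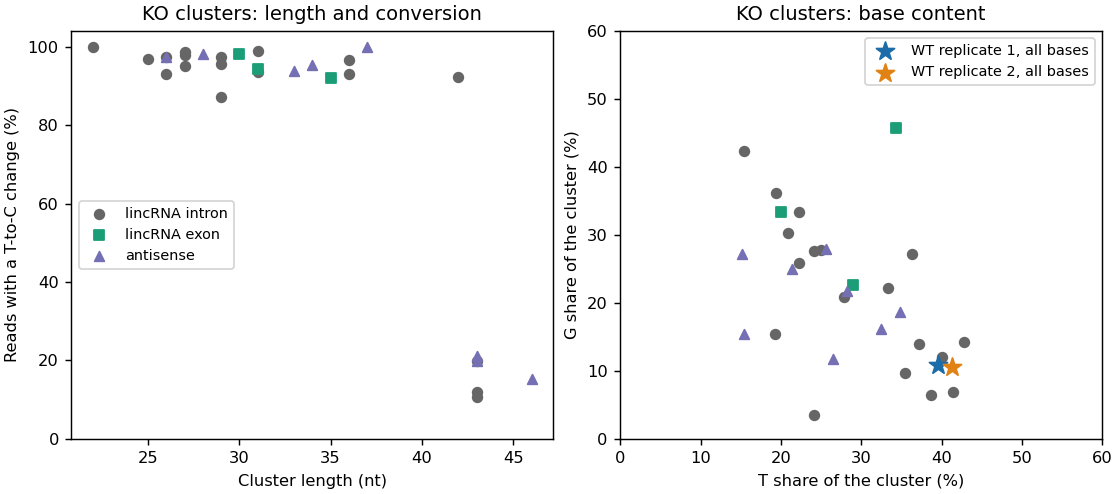
The 29 KO clusters by length and by the percentage of reads changed from T to C (left) and by T and G percentage of their bases (right); marker shapes give the class and stars the value over all bases of each WT library. The 6 clusters of 43 nt or more lie at 10.6 to 21.1%, apart from the other 23, and most KO clusters lie below the WT stars in T and above them in G.

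Single sites were shared between the WT libraries somewhat less often than sites in general. Of the 620 clusters in rep2, 101 (16.3%, 95% Wilson interval 13.6 to 19.4%) overlapped a rep1 cluster on the same strand by at least 1 nt, against 19.5% of all clusters and 20.3% of intronic ones. In the other direction 101 of 1970 (5.13%, 4.24 to 6.19%) did, against 6% of all clusters and 6.19% of intronic ones. The interval for lincRNA and antisense clusters thus takes in the intronic share in the second direction and stops just short of it in the first. Intronic clusters with the same distribution of reads would have given 20.4% and 5.91%, and in each class of reads the lincRNA and antisense share was below the intronic one, though the intervals overlap in all of them. By class, 23.8% of lincRNA exon clusters (10 of 42), 16.8% of lincRNA intron clusters and 13.9% of antisense clusters of rep2 were shared, with intervals that overlap. PVT1 had 12 of its 42 rep2 clusters shared, FTX 7 of 32, ZFAS1 6 of 15 and NEAT1 4 of 7.

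**Figure D5:**
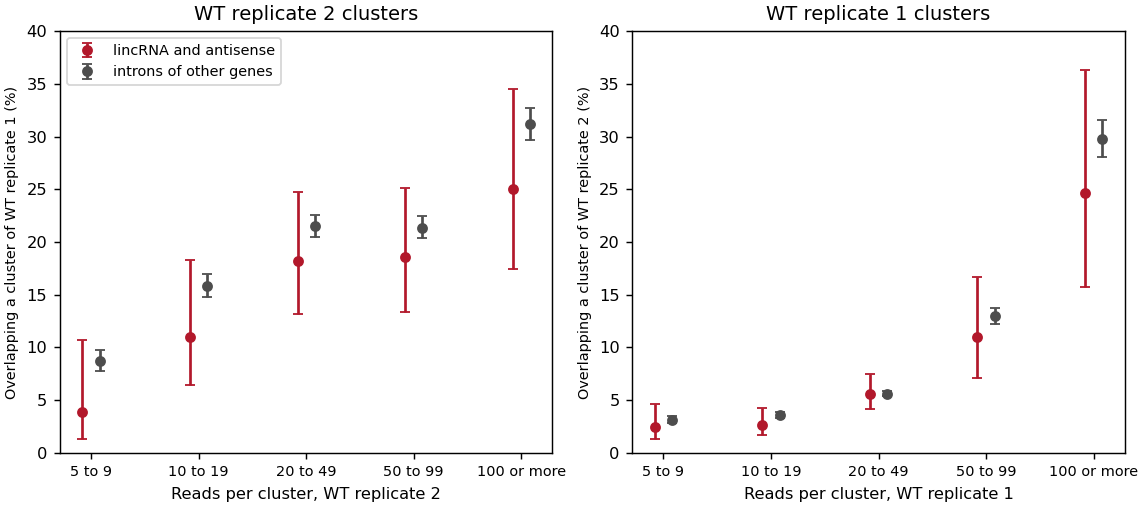
Percentage of clusters that overlap a cluster of the other WT library on the same strand (y axis) by reads per cluster (x axis), for lincRNA and antisense clusters (red) and clusters in introns of other genes (dark grey); bars are 95% Wilson intervals. The lincRNA and antisense share goes from 3.85% at 5 to 9 reads to 25% at 100 reads or more in WT replicate 2, and intronic clusters go from 8.73% to 31.2%.

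No KO cluster lay on a WT site. None of the 29 shared a base on the same strand with a cluster of rep1 or rep2 (0%, upper Wilson limit 11.7%), against 6.53% of all KO clusters and 5.00% of KO intronic ones. The limit takes in both of these shares, so a difference from them was not detectable with 29 clusters. Sharing by gene was lower than for KO genes in general. Of the 28 KO genes, 14 (50%, interval 32.6 to 67.4%) also had WT clusters of these classes, against 92.2% of all KO genes and 95.6% (93.4 to 97.1%) of those with intronic clusters. In both WT libraries it was 11 of 28 (39.3%, 23.6 to 57.6%), against 77.0% of all KO genes. In the reverse direction, of the 170 genes found in both WT libraries, 11 (6.47%) had a KO cluster, against 8.71% of all genes found in both.

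The KO clusters with the most reads lay partly in genes without WT clusters. C22orf34 (MIR3667HG in RefSeq) had 2 KO clusters with 653 reads, beside 22 clusters with 708 reads in rep1 and 3 with 183 in rep2. LINC01021, known as PURPL, a p53-induced lncRNA, had 1 KO cluster of 581 reads, 8 clusters with 454 reads in rep1 and 0 in rep2. RP11-144F15.1 (522 reads), AC004053.1 (474) and RP11-1057B6.1 (422) had no cluster in either WT library. The last of these was a lincRNA exon cluster in which 94.3% of reads carried a change. Of the 10 leading WT genes, PVT1, RP11-244M2.1 and LINC00355 had a KO cluster, each single and of 29 to 100 reads. Some other genes with clusters in all 3 libraries had more reads in KO than in WT, and those given here were chosen after their values were seen. MIRLET7BHG, host of let-7 microRNAs, had 103 and 6 reads in the WT libraries and 379 in KO. STX18-AS1 had 79, 17 and 278. LINC01089 had 114, 9 and 291. In each of these 3 genes the KO reads came from 1 cluster that overlapped none of the WT clusters. The KO library thus held few reads of the genes that led in WT, but how deeply it was sequenced is not known, and a lower depth and a lack of binding cannot be told apart for a gene without a cluster.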

How the data were processed

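PAR-CLIP was analysed in 3 libraries, 2 WT and 1 MATR3 KO, from the cluster tables the authors deposited, 1 a library. Per the submitters' processing notes, cutadapt 1.8.3 and Bowtie 1.1.2 were used and the builds hg38 and GRCh38.p5 are named. The cluster caller, its filters and the annotation release are not given in the sources used here. The deposited read and conversion counts of each cluster are whole numbers, with no normalisation per the file headers, and the weakest cluster of each library had 5 reads and 2 converted positions. A deposited fraction states how much of each cluster's reads carried a T-to-C change. The authors' scores for each cluster, a mode score and a conversion specificity, entered no result.

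From these tables the class, gene name, position, sequence and counts of the chosen clusters were summarised in each library, and set beside clusters annotated only as intron. Conversion is converted events over all T events. Shares have Wilson intervals at the 95% level. Overlap needed 1 nt on the same strand. WT values are means with SD over n = 2. Gene lengths, small RNA and coding intervals came from a RefSeq list of GRCh38.p14, in which 251 of 576, 125 of 264 and 18 of 28 gene names matched, and 89.7%, 90.7% and 100% of the clusters of matched genes lay inside that gene's interval. The tools were matplotlib 3.10.9, scipy 1.17.1, pandas 2.3.3 and numpy 2.4.6 under Python 3.11.15. Overlap and pentamer counting were tested on simulated data.

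The clusters and the 5 gene lists were chosen with earlier results of these data known. The text names the 10 genes that rank highest by geometric mean share of reads in WT, the 5 with the most clusters in both, the 5 with the most KO reads, and listed genes with clusters in both WT libraries, up to 4 a list. Others are named as chosen after their values were seen or as members of small counts. The alternatives tried were at least 10 reads, at least 3 converted positions, joined classes, leaving out ZFAS1 or a WT library, 10 nt of overlap, equal numbers of clusters, and trimming 3 nt from cluster ends. Clusters on the mitochondrial chromosome were left out, and no sequence from chromosome 8 is shown.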

Additional observations from a re-analysis of the deposited data

How the results depend on the processing

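No paired analysis was possible because WT and KO share a single replicate number, which in KO comes from accession order. Of 61 alternative values, 49 moved by less than the spread between WT libraries or the counting interval, or by less than 1.5 times for counts of genes. Some of these 49 could not have moved, so the count says little on its own. With n = 2, leaving out a WT library always shifts the mean by less than the SD. KO had 0 joined clusters and 0 in ZFAS1, so those alternatives left its values unchanged. An overlap of 0 at 1 nt must stay 0 at 10 nt. With at least 3 converted positions per cluster, lincRNA and antisense clusters made up 1.96% of WT clusters (KO 4.92%) and 2.09% of WT cluster reads, T was 42.2% of bases, conversion was 6.92% (KO 5.63%), and the TTCTT ratio to introns was 0.886. Under that minimum 21.2% of rep2 clusters overlapped rep1, against 25% of all clusters, and 50 genes had clusters in both. Without ZFAS1 the WT shares were 2.23% of clusters and 2.06% of reads. With rep1 reduced to as many clusters as rep2 by keeping its deepest, the overlap was 9.52%, against 11.8% of all clusters. The cause of these shifts was not tested. With 1 WT library at a time, the share of clusters ran from 2.26 to 2.28%, that of reads from 2.18 to 2.32%, lincRNAs from 63.6 to 66.3%, T from 39.6 to 41.3%, conversion from 7.52 to 8.19% and the TTCTT ratio from 0.922 to 1.02. The KO values rest on 29 clusters in 28 genes, and the depth of the libraries is not known.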
